A study of Homo sapiens with 8 samples.

Results

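The genes described here encode 7 cell surface proteins that are studied as targets in prostate cancer: FOLH1, STEAP1, STEAP2, PSCA, SLC44A4, CD276 and CD46. They were taken by symbol from a table of 18892 genes, in which all 7 were found, and all 7 passed the filter on low values. The RNA came from C4-2, a castration-resistant descendant of the human prostate cancer line LNCaP, kept in RPMI medium with fetal bovine serum. The tested cells carried a short hairpin RNA against CDCA8 (shCDCA8), the gene of the chromosomal passenger protein borealin, and the control cells carried a control hairpin (shCTRL), with 2 polyA RNA libraries in each group. All libraries are of this 1 line. The labels do not say how many hairpins or clones were used or how long after transfer the cells were taken, and off-target effects of a hairpin and loss of CDCA8 cannot be told apart. The 4 small RNA libraries of the series (shEZH2 and shCTRL) do not measure these mRNAs and were not used here.

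The 7 proteins reach the cell surface by different routes and have unrelated functions. FOLH1 is prostate-specific membrane antigen (PSMA), a zinc peptidase that trims glutamate from folates and peptides and the target of radioligand imaging and therapy. STEAP1 and STEAP2 are multi-pass membrane proteins of the metalloreductase family, which reduces iron and copper, and STEAP1 lacks the reductase domain that its relatives carry. PSCA is a small protein of the LY6 family held in the membrane by a glycosylphosphatidylinositol (GPI) anchor. SLC44A4 is a choline transporter-like protein that carries thiamine pyrophosphate in the colon. CD276, or B7-H3, is an immune ligand of the B7 family, and CD46, or membrane cofactor protein, helps to cleave complement deposited on the cell's own surface.

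The 250 bases before the transcription start are shown for the neighbouring pair STEAP1 and STEAP2 and for SLC44A4, CD276 and CD46. They come from a table of RefSeq promoters (GRCh38.p14), in which these 5 of the 7 genes were matched and FOLH1 and PSCA were not. Where it lists more than 1 start the most upstream was taken. Capitals mark every match, on either strand, to AGAACA (a steroid hormone response core), TGTTTAC (a forkhead core), CAATAAA (a HOXB13-type site), GGGCGG (the GC box), TATAAA (the TATA box) or CACGTG (the E-box).
STEAP1, chr7:90154219-90154468, plus strand: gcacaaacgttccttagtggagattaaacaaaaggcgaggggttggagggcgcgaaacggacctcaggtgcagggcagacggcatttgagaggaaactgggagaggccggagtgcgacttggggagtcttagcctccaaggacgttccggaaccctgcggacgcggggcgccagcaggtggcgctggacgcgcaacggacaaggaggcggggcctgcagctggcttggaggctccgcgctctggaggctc
STEAP2, chr7:90211490-90211739, plus strand: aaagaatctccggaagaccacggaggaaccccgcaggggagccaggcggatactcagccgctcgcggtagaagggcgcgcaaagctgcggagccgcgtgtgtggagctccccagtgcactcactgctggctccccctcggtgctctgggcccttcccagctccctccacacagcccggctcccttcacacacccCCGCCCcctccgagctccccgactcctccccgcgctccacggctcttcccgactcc
SLC44A4, chr6:31878998-31879247, minus strand: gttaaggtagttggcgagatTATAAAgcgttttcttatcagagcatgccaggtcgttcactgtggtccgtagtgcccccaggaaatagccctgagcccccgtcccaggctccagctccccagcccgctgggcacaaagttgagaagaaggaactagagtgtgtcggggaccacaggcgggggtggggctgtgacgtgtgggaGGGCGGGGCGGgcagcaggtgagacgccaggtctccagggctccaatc
CD276, chr15:73684133-73684382, plus strand: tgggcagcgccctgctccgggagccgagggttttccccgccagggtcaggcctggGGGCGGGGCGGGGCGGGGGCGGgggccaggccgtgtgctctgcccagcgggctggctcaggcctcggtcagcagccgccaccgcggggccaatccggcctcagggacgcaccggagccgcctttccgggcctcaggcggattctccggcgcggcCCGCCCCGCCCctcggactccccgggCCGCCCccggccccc
CD46, chr1:207751788-207752037, plus strand: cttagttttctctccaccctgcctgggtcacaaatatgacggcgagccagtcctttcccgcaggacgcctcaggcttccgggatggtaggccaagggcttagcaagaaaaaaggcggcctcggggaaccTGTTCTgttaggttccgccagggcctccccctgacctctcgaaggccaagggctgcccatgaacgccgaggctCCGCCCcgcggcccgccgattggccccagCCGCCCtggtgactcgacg

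The CD276 window was the richest in G and C of the 5, at 80.8%, above 97.4% of the 35116 windows in the table (median 58%), and held 7 GC boxes, some of which share bases. SLC44A4 held 2 GC boxes that share bases and the only TATA box of the 5. CD46 held 2 GC boxes and the only match to the steroid hormone response core, STEAP2 held 1 GC box, and STEAP1 held no match to any of the 6 motifs. Of all windows, 42.6% held a GC box, 12.4% the steroid hormone response core, 10.7% the TATA box, 6.34% the E-box, 3.66% the HOXB13-type site and 2.98% the forkhead core. These matches describe letters and are not binding sites.

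Values are RPM, reads scaled by the authors to a common library total and not divided by gene length, so levels are compared between libraries and not between genes. Between 17406425 and 18931009 reads fell in the gene rows of the shCDCA8 libraries, and between 20380764 and 21920570 in those of the shCTRL libraries. These were 33.3% and 34.2% of the total used for RPM in shCDCA8, against 41.1% and 43.6% in shCTRL, and the median log2 fold change of the 11833 genes that passed the filter was -0.27. The changes of the 7 and the counts of their lists are therefore also given after median-ratio scaling, which divides a library by its median ratio to the average library and removes this shift. CDCA8 itself stood at 3.98 and 3.94 RPM in shCDCA8, against 14.2 and 16.5 RPM in shCTRL. All 10 luminal prostate markers passed the filter, among them KLK3 and KRT8, with 6 lower and 2 higher after knockdown. With median-ratio scaling 5 were lower and 4 higher. Of all genes 47.6% were lower and 18.8% higher by the same rule, or 33.6% and 33.2% with that scaling. The summed RPM of the 10 was 1690 and 1800 in shCDCA8, against 3270 and 3410 in shCTRL. Markers of other cells were low: 2 of 4 basal, 2 of 7 neuroendocrine, 3 of 8 fibroblast and 2 of 7 leukocyte and endothelial markers passed the filter. Their summed RPM was lower in shCDCA8: 2.85 and 3.38 against 6.68 and 7.19 in shCTRL for basal markers, 9.32 and 9.21 against 17.3 and 20.6 for neuroendocrine, and 7.33 and 7.87 against 14.4 and 16.8 for fibroblast markers. For leukocyte and endothelial markers the sums overlapped, at 10.4 and 12 in shCDCA8 and 11.3 and 15 in shCTRL. CD68, the gene of this list with the highest RPM, was higher after knockdown (log2 fold change 0.41, limma adjusted p = 0.0321), and VWF was lower. CD68 lost its call with no filter on low values (limma adjusted p = 0.0847). With 1 library left out the value of CD68 ranged from 0.22 to 0.61. CD3E was at 0 in both shCDCA8 libraries and at no more than 0.0188 RPM in shCTRL. The part of these markers in the results below was not tested.

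After CDCA8 knockdown CD46 was higher, SLC44A4, PSCA, CD276 and STEAP2 were lower, and FOLH1 and STEAP1 did not pass the test. A gene is said to rise or fall where limma's adjusted p over all 11833 genes was under 0.05. By this rule 1 of the 7 rose, where 18.8% of all genes did, and 4 fell, where 47.6% did, and 66.4% passed in either direction, so calls among the 7 came at about the rate of the whole table. The groups did not overlap for 5 of the 7, where this held for 83.2% of all genes. The median log2 fold change of the 7 was -0.32, beside -0.27 for all genes. With median-ratio scaling 3 rose (CD46, FOLH1 and STEAP1, beside 33.2% of all genes) and 2 fell (SLC44A4 and PSCA, beside 33.6%), 66.8% of all genes being called in either direction, so CD46 and both of these falls are the calls that stood on either scale. The labels do not say whether the 2 libraries of a group came from separate cultures, so the spread between them may be technical. The SEs, intervals and p-values of limma rest on this spread and also borrow from that of other genes (prior degrees of freedom 9.808). They are therefore not a measure of the spread of 1 gene alone.

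**Figure D1:**
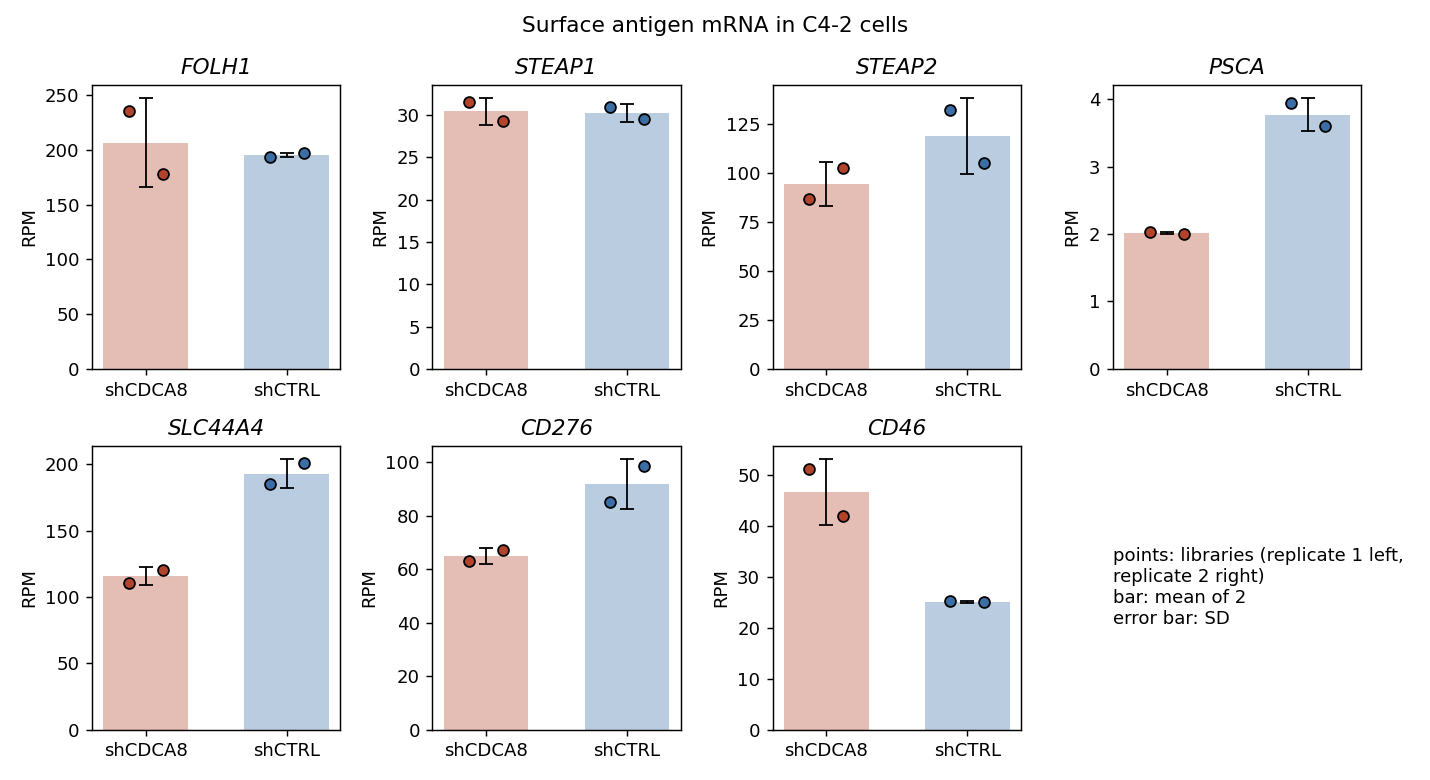
RPM of each of the 7 genes in the shCDCA8 and shCTRL libraries, each panel with its own axis from 0; points are libraries, bars the mean of 2 and error bars the SD. CD46 is higher in both shCDCA8 libraries (51.1 and 42.0 RPM) than in shCTRL (25.19 and 24.96 RPM), SLC44A4, PSCA, CD276 and STEAP2 are lower, and the points of FOLH1 and STEAP1 overlap.

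CD46, which protects cells from their own complement, had the largest change of the 7 on the log2(RPM + 1) scale, and with a pseudocount of 0.1 RPM it and PSCA changed by about the same amount (0.88 and -0.87). It stood at 51.1 and 42.0 RPM in shCDCA8, against 25.19 and 24.96 RPM in shCTRL. Both knockdown libraries lay well above both controls, which differed by 0.925% of their mean. The ratio of the means was 1.86, and on the log2(RPM + 1) scale the difference was 0.86 (SE 0.12, n = 2 against 2, 95% interval 0.60 to 1.12, limma adjusted p = 6.2e-05). It was larger than that of 95.4% of all genes, and 1.16 with median-ratio scaling (adjusted p = 8.8e-05). The knockdown libraries differed from each other by 19.7% of their mean, and without shCDCA8 replicate 1 the log2 fold change was 0.72.

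The surface regulators CD55 and CD59 did not follow CD46, while the secreted regulator CLU also rose. CD55, which speeds the decay of the complement convertases and lies 4 protein-coding genes from CD46 on chromosome 1, fell to 1.63 and 1.25 RPM in shCDCA8, against 5.53 and 5.05 RPM in shCTRL. Its log2 fold change was -1.37 ± 0.14 (limma adjusted p = 5.53e-06), and -1.15 with median-ratio scaling (adjusted p = 0.000226), the opposite direction from CD46 on both scales. CD59, the GPI-anchored inhibitor of the membrane attack complex, stood at 45.2 and 38.4 RPM in shCDCA8 and 52.1 and 49.2 RPM in shCTRL. Its small fall (-0.27, adjusted p = 0.0491) equalled the median of all genes and turned to 0.03 with median-ratio scaling (adjusted p = 0.824). CD59 also lost its call without shCDCA8 replicate 2 (-0.16, adjusted p = 0.361), shCTRL replicate 1 (-0.23, adjusted p = 0.177) or shCTRL replicate 2 (-0.32, adjusted p = 0.0681). CLU, the secreted chaperone clusterin that also restrains the terminal complex, rose from a low level, with 8.29 and 6.48 RPM in shCDCA8 and 3.75 and 4.07 RPM in shCTRL (log2 fold change 0.76, adjusted p = 0.000675). With median-ratio scaling the value of CLU was 1.03 (adjusted p = 0.000527). These 3 were all the genes that passed the filter among the 9 in the table from a list of 11 complement regulators.

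SLC44A4 had the largest fall of the 7 on the log2(RPM + 1) scale. It stood at 111 and 121 RPM in shCDCA8, against 185 and 200.5 RPM in shCTRL, and the groups did not overlap. The knockdown mean was 60.0% of the control mean, a log2 fold change of -0.73 (95% interval -0.94 to -0.52, SE 0.0958, n = 2 per group, limma adjusted p = 3.7e-05). With median-ratio scaling it was -0.42 (adjusted p = 0.00116). Of 11 other genes of choline and thiamine transport and use that passed the filter, 8 fell and 1 rose, beside 47.6% and 18.8% of all genes. The median of the 11 was -0.61, beside -0.27 for all genes. With median-ratio scaling 5 fell and 1 rose, beside 33.6% and 33.2% of all genes. The 3 other members of its transporter family that passed the filter, named after their values were seen, were among the falls, and SLC44A5 was under the filter. SLC44A2 fell to 46.4 ± 5.48 RPM in shCDCA8, against 89.4 ± 2.19 RPM in shCTRL (SD, n = 2). The log2 fold change of SLC44A1 was -0.75, and that of the scarce SLC44A3 was -0.67. CHDH, which oxidises choline on the way to betaine, had the largest fall of that list (-1.24), and PCYT1A, which makes the activated choline for phosphatidylcholine, was its single rise (0.29, adjusted p = 0.0421). PCYT1A lost its call whenever shCDCA8 replicate 1 (adjusted p = 0.111), shCDCA8 replicate 2 (adjusted p = 0.137) or shCTRL replicate 1 (adjusted p = 0.258) was left out.

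PSCA rested on the fewest reads of the 7, with 106 and 111 reads in shCDCA8, against 210 and 168 reads in shCTRL. These are 2.03 and 2.01 RPM in shCDCA8, with 95% exact Poisson intervals of 1.66 to 2.45 and 1.65 to 2.42 RPM, against 3.94 and 3.60 RPM in shCTRL, with intervals of 3.42 to 4.51 and 3.07 to 4.18 RPM. The intervals, which cover counting error only, did not overlap between the groups. Knockdown libraries held 53.6% of the control mean, the lowest share of the 7, and a log2 fold change of -0.66 (limma adjusted p = 0.000852, SE 0.131, n = 2 per group) that the added 1 RPM understates. With a pseudocount of 0.1 RPM it was -0.87, and with median-ratio scaling -0.43 (adjusted p = 0.017). DESeq2 on the recovered reads did not call it (adjusted p = 0.0667), nor did limma after quantile normalization (adjusted p = 0.0548).

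Among its relatives of the LY6 and uPAR family, 5 other genes passed the filter and 4 of them fell (3 with median-ratio scaling), with a median of -0.83. Whole-table falls were 47.6% of genes, or 33.6% with median-ratio scaling. LY6E, an interferon-inducible GPI-anchored protein, fell to 56.5 and 67.4 RPM in shCDCA8, against 142 and 147 RPM in shCTRL (-1.21 ± 0.107, limma adjusted p = 1.85e-06). LYNX1, a modulator of nicotinic receptors that lies 7 protein-coding genes from PSCA on chromosome 8, had a log2 fold change of -0.83, and LYPD3 of -0.91. LY6G5B was not called (-0.13, adjusted p = 0.399), and the fourth fall was that of CD59, whose call was lost in most of the fits without 1 library, as given above. Of 26 genes that build the GPI anchor itself, 9 fell, 5 rose and 12 were not called (median -0.13), where 47.6% of all genes fell and 18.8% rose. With median-ratio scaling 5 of the 26 fell and 10 rose, beside 33.6% and 33.2% of all genes. The scaling raises the log2 fold change of all genes, by less for low genes on the log2(RPM + 1) scale. DPM2, of the dolichol-phosphate mannose synthase, fell (-1.0), and PIGS, of the transamidase that attaches the anchor, rose (0.86).

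CD276 fell by less and its call depended on the scale. It stood at 62.9 and 67.0 RPM in shCDCA8, against 85.2 and 98.3 RPM in shCTRL, with no overlap. Knockdown libraries held 70.8% of the control mean, a log2 fold change of -0.49 (limma adjusted p = 0.00153, SE 0.106, n = 2 per group), or -0.22 relative to the median of all genes. With median-ratio scaling it was -0.18 and was not called (adjusted p = 0.0815). Of 7 other B7 family genes and immune ligands that passed the filter, 4 fell and 1 rose (3 and 1 with median-ratio scaling), with a median of -0.51. Whole-table shares were 47.6% lower and 18.8% higher (33.6% and 33.2% with median-ratio scaling). PVRL2, or nectin-2, a ligand of the DNAM-1 and TIGIT receptors, fell to 7.23 ± 0.421 RPM in shCDCA8, against 15.6 ± 1.7 RPM in shCTRL (SD, n = 2, log2 fold change -1.01). CD47, the "don't eat me" ligand of SIRP-alpha, was the rise, at 10.3 ± 0.752 RPM in shCDCA8 and 7.20 ± 1.19 RPM in shCTRL (0.46, adjusted p = 0.0135). CD47 lost its call without shCDCA8 replicate 1 (adjusted p = 0.0754) or without shCTRL replicate 2 (adjusted p = 0.108). CD274, the gene of PD-L1, was under the filter, with 0.0574 and 0.199 RPM in shCDCA8 and 0.0375 and 0.107 RPM in shCTRL.

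FOLH1 was not called, and its knockdown libraries disagreed. It stood at 235 and 178 RPM in shCDCA8, against 194 and 197 RPM in shCTRL, so the controls lay between the knockdown libraries. The knockdown libraries differed by 27.9% of their mean and the controls by 1.61%. Counting error does not cover that gap, since 12285 and 9821 reads give 95% exact Poisson intervals of 231 to 239 and 174 to 181 RPM in shCDCA8. The log2 fold change was 0.06 ± 0.12 (SE, n = 2 against 2, limma adjusted p = 0.656, 95% interval -0.20 to 0.33), 0.33 above the median of all genes, and 0.38 with median-ratio scaling, where it was called (adjusted p = 0.0368). Without shCDCA8 replicate 1 it was -0.14 and without shCDCA8 replicate 2 it was 0.27. Reads of FOLH1 and its near-identical copy FOLH1B could be split or dropped by the counting, which was not tested, and FOLH1B was listed at 0.134 and 0.145 RPM in shCDCA8 and 0.0938 and 0.0428 RPM in shCTRL.

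Of the FOLH1 relatives that passed the filter, TFR2 (-1.36) and TFRC (-0.63), the transferrin receptors that share its peptidase fold, fell and NAALADL2 (0.56) rose, with the same 3 calls under median-ratio scaling. Of 13 genes of folate uptake and handling 9 fell and 1 rose (7 and 1 with median-ratio scaling), with a median of -0.81. Shares of all genes were 47.6% lower and 18.8% higher (33.6% and 33.2% with median-ratio scaling). MTHFD1L, the mitochondrial formate-producing enzyme, fell to 2.43 and 2.30 RPM in shCDCA8, against 18.0 and 18.5 RPM in shCTRL (-2.52 ± 0.13, limma adjusted p = 4e-08).

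STEAP1 was not called, while STEAP2, the next protein-coding gene on chromosome 7, fell slightly after knockdown. STEAP1 stood at 31.5 and 29.3 RPM in shCDCA8, against 31.0 and 29.5 RPM in shCTRL. The groups overlapped, and the log2 fold change was 0.01 ± 0.11 (SE, n = 2 against 2, limma adjusted p = 0.951, 95% interval -0.23 to 0.25), with 0.31 after median-ratio scaling (adjusted p = 0.0261). STEAP2 stood at 86.4 and 102 RPM in shCDCA8, against 132 and 105 RPM in shCTRL. Its groups did not overlap by a narrow margin, and the spread within each was the widest among the genes that fell. The log2 fold change was -0.32 ± 0.125 (adjusted p = 0.0375, 95% interval -0.60 to -0.05), close to the median of all genes, and -0.01 after median-ratio scaling (adjusted p = 0.932). It was not called without shCDCA8 replicate 1 (-0.20, adjusted p = 0.205) or without shCTRL replicate 1 (-0.16, adjusted p = 0.335).

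The ratio of STEAP1 to STEAP2 within a library does not depend on the scaling. Its log2 value was -1.46 and -1.80 in shCDCA8, against -2.09 and -1.83 in shCTRL, higher in both knockdown libraries by a small margin between the nearest values. It is given as a description, with no test. STEAP3, the ferrireductase of endosomes, fell to 18.2 and 21.6 RPM in shCDCA8, against 28.6 and 31.7 RPM in shCTRL (-0.58, adjusted p = 0.00144; -0.28 and adjusted p = 0.0387 with median-ratio scaling). STEAP4 was under the filter, at 0.0574 and 0.163 RPM in shCDCA8 and 0.844 and 0.792 RPM in shCTRL. So was STEAP1B, a relative of STEAP1, at no more than 0.15 RPM in any library. STEAP2-AS1, an antisense RNA whose span in RefSeq overlaps STEAP1, had 0.134 and 0.145 RPM in shCDCA8 and 0.375 and 0.343 RPM in shCTRL. The sources used here do not give the strand setting of the counting, so reads of the pair cannot be told apart.

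Of 16 iron and copper genes that passed the filter 8 fell and 5 rose, with a median of -0.34, where 47.6% of all genes fell and 18.8% rose. With median-ratio scaling 6 of the 16 fell and 7 rose, beside 33.6% and 33.2% of all genes. SLC31A1, the high-affinity copper importer, fell to 21.2 and 19.2 RPM in shCDCA8, against 71.0 and 69.9 RPM in shCTRL (-1.76). ATP7A, the copper exporter mutated in Menkes disease, rose to 12.8 and 12.9 RPM in shCDCA8, against 5.10 and 4.003 RPM in shCTRL (1.33, limma adjusted p = 7.85e-06).

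**Figure D2:**
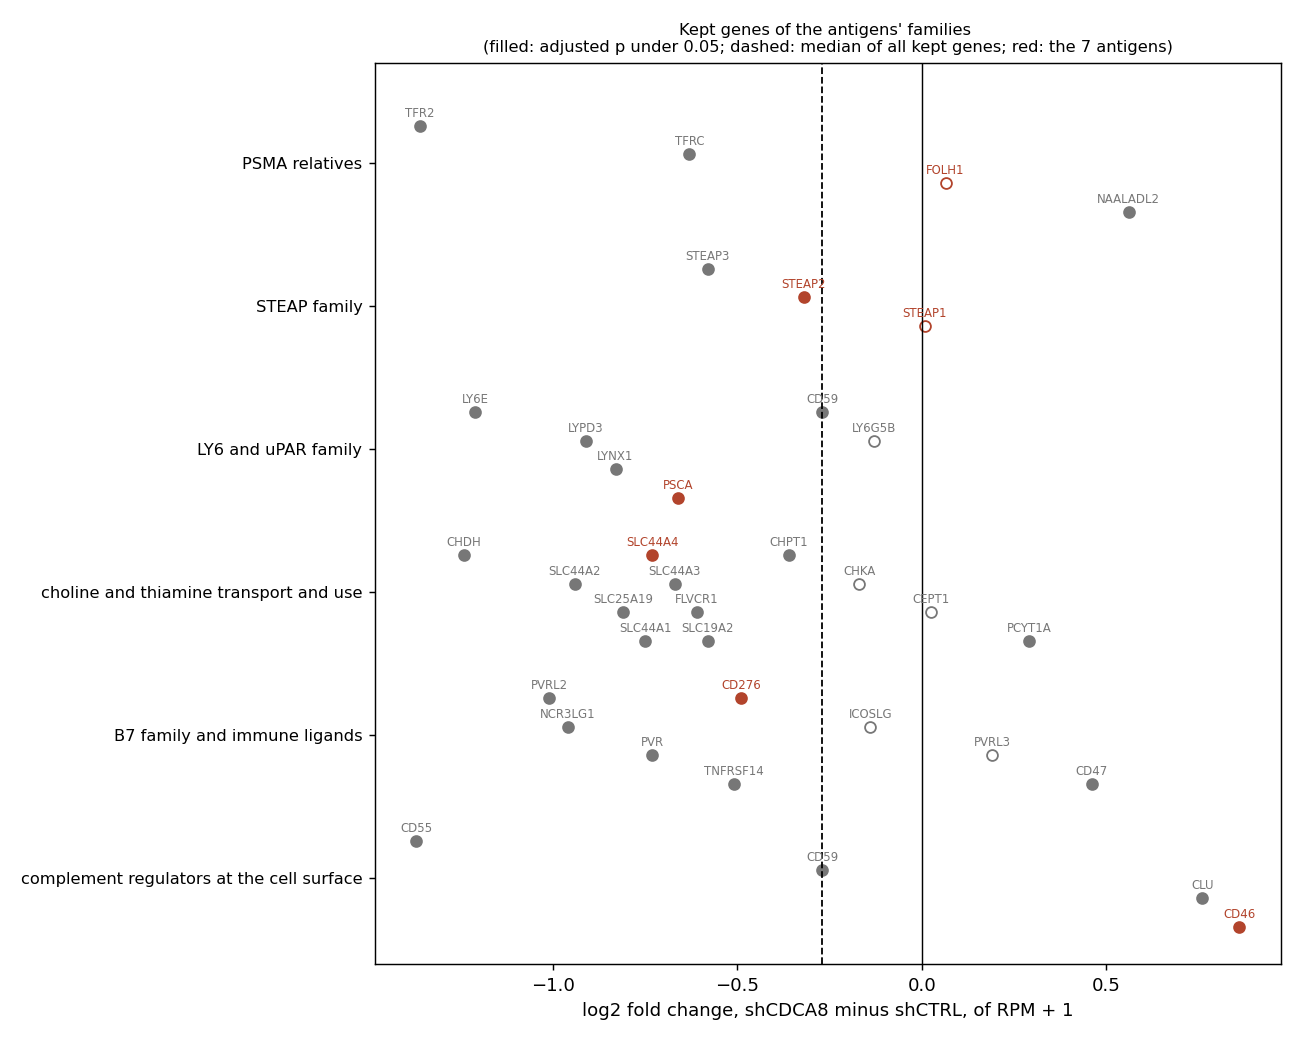
Log2 fold change (shCDCA8 minus shCTRL, of RPM + 1) of the kept genes in the families of the 7 antigens, which are drawn in red; filled points have an adjusted p under 0.05 and the dashed line is the median of all kept genes (-0.27). CD46 (0.86) stands opposite CD55 (-1.37), while CLU (0.76) rose with it. Of the 11 other kept choline and thiamine genes 8 fell like SLC44A4 (-0.73), PCYT1A (0.29) rose, and CHKA and CEPT1 were not called. Of all genes 47.6% fell and 18.8% rose.

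**Figure D3:**
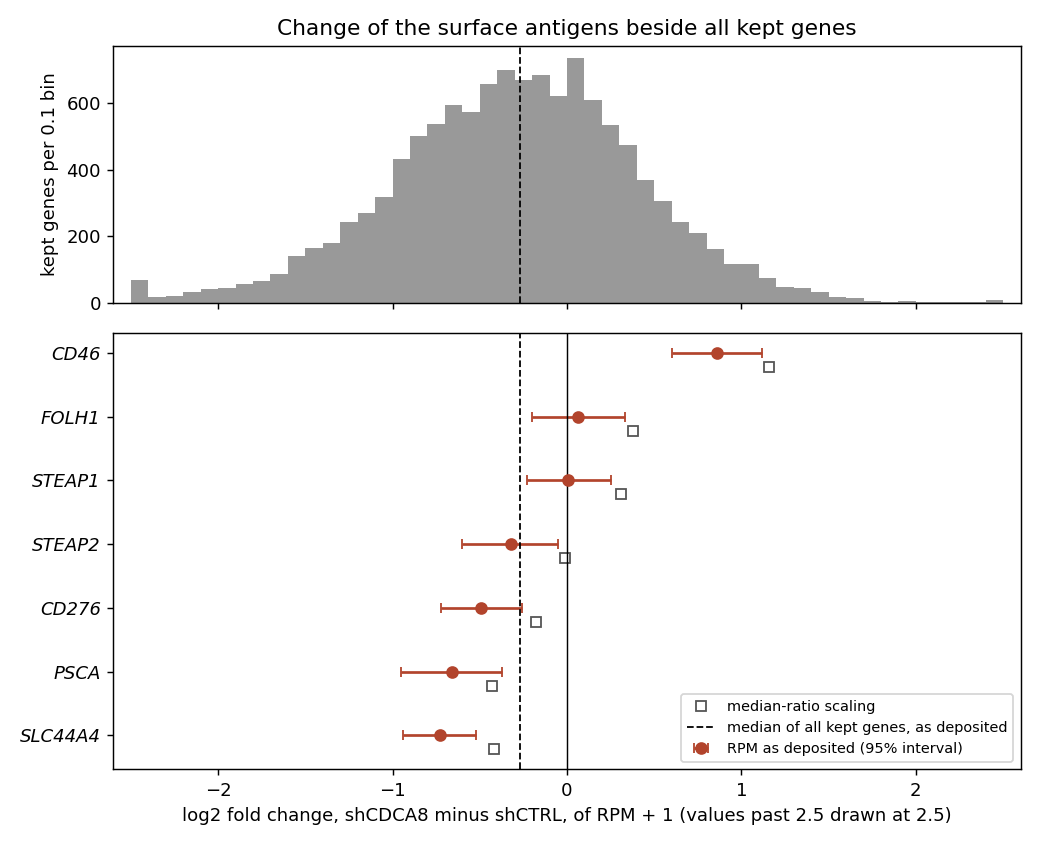
Upper panel, number of kept genes per 0.1 of log2 fold change (shCDCA8 minus shCTRL); lower panel, the 7 antigens as deposited (circles with 95% intervals) and after median-ratio scaling (squares, no interval). CD46 lies right of 0 and SLC44A4 and PSCA left of it on both scales, while FOLH1 and STEAP1 sit at 0.06 and 0.01 as deposited and at 0.38 and 0.31 after scaling.

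Regulators of the prostate lineage were measured in the same libraries. FOXA1, a forkhead pioneer factor of luminal cells, fell to 125 and 149 RPM in shCDCA8, against 315 and 348 RPM in shCTRL (-1.27). HOXB13, a prostate homeobox factor, fell by 0.29 as deposited and stood at 0.02 with median-ratio scaling (adjusted p = 0.841), and HOXB13 lost its call without shCDCA8 replicate 1 (-0.18, adjusted p = 0.229) or shCTRL replicate 2 (-0.22, adjusted p = 0.136). Among 18 lineage transcription factors 10 fell and 4 rose, beside 47.6% and 18.8% of all genes. With median-ratio scaling 8 fell and 5 rose, beside 33.6% and 33.2%. Their median was -0.36, beside -0.27 for all genes, and the largest rise was in ELF3 (1.04), an epithelial ETS factor. These values were not tested against those of the 7 genes.

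Other surface proteins used or tried as carcinoma targets were mostly lower. Of 34 that passed the filter 23 fell, 6 rose and 5 were not called, with a median of -0.64 (19 fell and 9 rose with median-ratio scaling). Among all genes 47.6% fell and 18.8% rose (33.6% and 33.2% with median-ratio scaling). SLC7A5, the large neutral amino acid transporter, fell to 23.4 and 32.1 RPM in shCDCA8, against 249 and 291 RPM in shCTRL (-3.25). ITGAV, the integrin alpha-V subunit, rose to 14.6 and 14.2 RPM in shCDCA8, against 8.25 and 4.65 RPM in shCTRL (1.09, adjusted p = 0.000367). Among those not called, named outside the rule, were EPCAM, PVRL4 (nectin-4), SLC39A6 and CDH1. DLL3, a target in neuroendocrine disease, was among the falls.

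In gene order (RefSeq, GRCh38.p14) the nearest genes that passed the filter moved in both directions. Beside CD46 on chromosome 1, YOD1 rose (2.33), CD55 (-1.37) and PLXNA2 (-0.64) fell, and C1orf74 was not called (0.10). PLXNA2 lost its call with scaling to the gene rows (adjusted p = 0.0601), quantile normalization (0.0523), edgeR (0.0512) and DESeq2 (0.0701). Next to SLC44A4 on chromosome 6, NEU1 rose (0.92), while EHMT2 (-0.87), ZBTB12 (-2.20) and C6orf48 (-1.39) fell. All 4 genes around PSCA on chromosome 8 fell (THEM6 -0.91, LYNX1 -0.83, ARC -0.48 and JRK -0.37), where 47.6% of all genes fell. With median-ratio scaling, where 33.6% of all genes fell, ARC and JRK were not called (adjusted p = 0.191 and 0.601). Without shCTRL replicate 2 ARC stood at -0.20 (adjusted p = 0.294) and JRK at -0.21 (adjusted p = 0.293), and without shCDCA8 replicate 1 JRK stood at -0.28 (adjusted p = 0.196). Near CD276 on chromosome 15, LOXL1-AS1 (-2.79), LOXL1 (-1.87) and NPTN (-0.57) fell and NEO1 was not called (0.02). NPTN lost its call with scaling to the gene rows (adjusted p = 0.0525) and with DESeq2 (0.0765). Around the STEAP pair on chromosome 7, SRI (-1.23) and ADAM22 (-0.57) fell on the STEAP1 side, and GTPBP10 (0.76) and CLDN12 (0.54) rose on the STEAP2 side. ADAM22 lost its call with quantile normalization (adjusted p = 0.207) and with DESeq2 (0.144). Flanking FOLH1 on chromosome 11, at 11 to 56 protein-coding genes away, NUP160 (0.66) and PTPRJ (0.73) rose on one side, and on the other SSRP1 (-0.67) fell and TNKS1BP1 (-0.14) was not called.

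Profiles most like each gene were sought by the Euclidean distance between centred log2(RPM + 1) values over the 4 libraries, among 8503 genes that averaged 5 RPM or more. The closest to CD46 were SUDS3 (distance 0.019) and HELQ (0.0203), with 12 genes within 0.1. SLC44A4 was closest to POLL (0.0183) and INPP5K (0.0252), with 166 genes within 0.1, and CD276 to SYNE4 (0.0276) and ZC3H18 (0.0283), with 176. PSCA lay nearest to NLN (0.0252) and KLHDC3 (0.0287), with 67 genes within 0.1, and STEAP1 to GPAM (0.0173) and KBTBD2 (0.0201), with 130. FOLH1, whose knockdown libraries differed, had PARP2 (0.0804) and MAGOH (0.088), and STEAP2 had MYO6 (0.0607) and ZNF714 (0.0977), in each case the only 2 genes within 0.1. With 4 libraries such likeness is a description of these values.

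**Figure D4:**
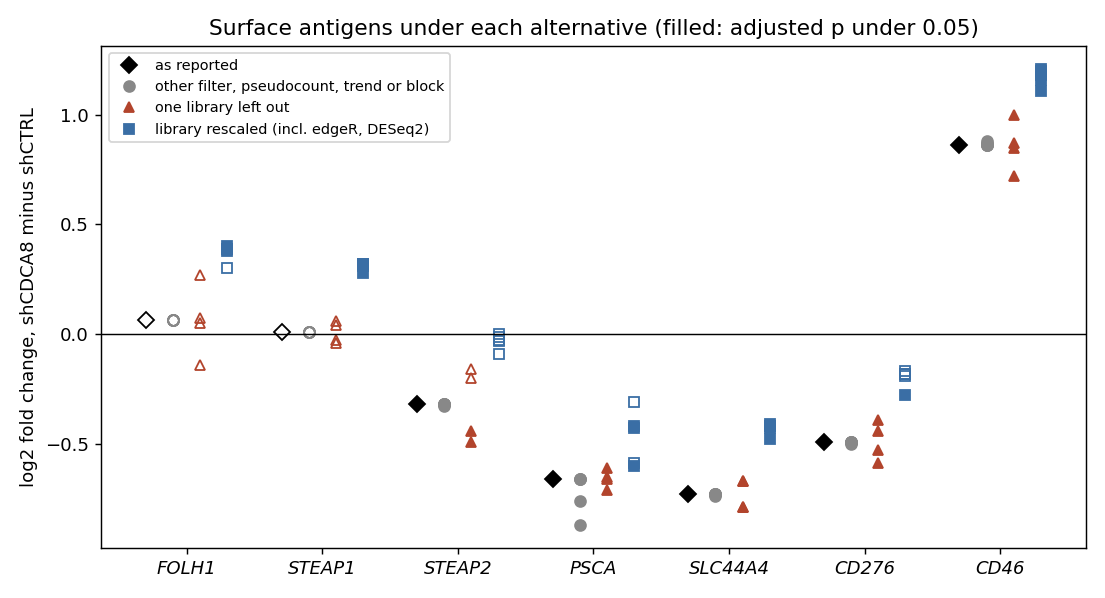
Log2 fold change (shCDCA8 minus shCTRL) of each gene as reported (diamonds), with another filter, pseudocount, trend or block (circles), with 1 library left out (triangles) and with the libraries rescaled or fitted by edgeR or DESeq2 (squares); filled symbols have an adjusted p under 0.05. CD46 (0.72 to 1.21) and SLC44A4 (-0.79 to -0.41) are filled throughout, and the squares of STEAP2 lie near 0.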

How the data were processed

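The deposited table gives RPM per gene, reads scaled by the authors to a library total, per the file name. TopHat, cutadapt, HTSeq and edgeR are listed in the submitters' processing notes, with build hg19; the sources used here give no roles, annotation or strand. All values above 0 were whole multiples of their library's smallest value (100% within 0.01), so reads were recovered. Values were tested as log2(RPM + 1) with limma 3.58.1 (R 4.3.3; mean-variance trend, two-sided, Benjamini-Hochberg) over the 11833 genes that reached 1 RPM in 2 or more of the 4 libraries. As alternatives, edgeR 4.0.16 called 7807 and DESeq2 1.42.0 called 7214 genes on the recovered reads, where limma called 7852. Fold changes on this scale understate those of low genes. In simulated data with 11591 genes, 11394 were given no change, and 4 of these passed. Of the genes given a change 60.6% passed at 1.5-fold, 95.5% at 2-fold and 100% at 4-fold (n = 66, 66 and 65). By contrast, 66.4% of all genes were called in the deposited data. Whether the simulated rates hold for the deposited data was not tested.

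The 7 genes and the gene lists were chosen with earlier results of these data known. List counts leave the 7 out. Beyond the 7, the genes named are CDCA8, FOXA1, HOXB13, the largest rise and fall of each list (mean of at least 5 RPM, groups not overlapping), the nearest 2 kept genes on each side in RefSeq order and the 2 nearest profiles. Some genes and 1 list that the rule covers are not reported here. Others were named after their values were seen. Older symbols were matched through RefSeq synonyms. Chi-square per degree of freedom between the libraries of a group was 10.6 in shCDCA8 and 8.5 in shCTRL, so none is treated as a library deposited again. The small RNA table was not used.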

Additional observations from a re-analysis of the deposited data

How the results depend on the processing

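CD46 and SLC44A4 kept their direction and call in all 15 alternatives. Rescaling or a count model changed the call of each of the other 5 in at least 1 alternative. FOLH1 was called at 0.38 (median-ratio), 0.39 (sum of gene rows), 0.39 (edgeR) and 0.40 (DESeq2), and STEAP1 at 0.31, 0.32, 0.32 and 0.32 and, with quantile normalization, 0.28. STEAP2 lost its call, at -0.0137 (median-ratio), 0.000267 (gene rows), -0.0903 (quantile), -0.0303 (edgeR), -0.0256 (DESeq2), and at -0.32 both with no filter (adjusted p = 0.101) and with no trend (adjusted p = 0.0722). CD276 lost it at -0.18 (median-ratio), -0.17 (gene rows), -0.19 (edgeR) and -0.18 (DESeq2), and PSCA at -0.31 (quantile) and -0.59 (DESeq2). PSCA was called by edgeR on the same reads (-0.60, adjusted p = 0.0188). With these rescalings and count models 3 of the 7 were called higher (2 with quantile normalization) and 2 lower (1 with DESeq2), against 1 and 4 as reported. Leaving out 1 library gave ranges of -0.14 to 0.27 for FOLH1, -0.0418 to 0.0586 for STEAP1 and -0.49 to -0.16 for STEAP2. The cause was not tested.

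Reversals of other named genes, in the order median-ratio, gene rows, edgeR and DESeq2, were CD59 (0.0314, 0.0452, 0.0304, 0.0373), HOXB13 (0.02, 0.0341, 0.017, 0.0219, and 0.0159 with quantile normalization) and TNKS1BP1 (0.17, 0.18, 0.16, 0.17, and 0.0855 with quantile normalization). Leaving out 1 library gave ranges of -0.36 to 0.0778 for TNKS1BP1, -0.0651 to 0.26 for C1orf74 and -0.19 to 0.22 for NEO1. Of all calls 28.3% were higher as deposited and 49.7% with median-ratio scaling. With the replicate number as a replicate block, 8901 genes were called, against 7852 without it, and the 7 genes kept their calls. Deviations of same-numbered libraries correlated at 0.313 over genes, and with 2 numbers per group they are not taken as pairs. PSCA was not tested at a filter of 5 RPM, since it stayed below 5 RPM in every library. Depth limits the precision of PSCA, which has the fewest reads.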
